A study of Mus musculus with 16 samples.

Results

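Myosin heavy chains are the motor proteins of the thick filament, and the gene a muscle fiber uses sets how fast that fiber contracts. The 9 genes described here were taken by their symbols from a list of heavy chain genes (Myh1, Myh2, Myh3, Myh4, Myh7, Myh7b, Myh8, Myh13 and Myh14), and all 9 were found among the 21923 genes of the table. RNA from gastrocnemius, the large calf muscle, was sequenced for 16 adult mice, with 1 library per mouse and 4 mice in each of 4 groups. NOR mice were injected with PBS in place of tumor cells and carried no tumor. CAC mice carried LLC (lung carcinoma) or CT26 (colon carcinoma) tumors and received PBS daily from day 9. AM mice, numbered under T in the labels, carried the same tumors and received the diuretic amiloride at 2 mg/kg daily from day 9. For KD mice the injected LLC or CT26 cells had Rab27, which acts in exosome release, knocked down. NOR and KD mice also received PBS daily from day 9, like CAC mice, and all daily injections were intraperitoneal. The tumors were subcutaneous and the knock-down was in the injected tumor cells, not in the muscle. All muscles were taken on day 30. In every group, replicates 1 and 2 are labelled C57BL/6, the hosts of LLC cells, and replicates 3 and 4 are labelled BALB/c (also spelled BABL/c there), the hosts of CT26 cells, so strain and tumor line changed together. The labels give males for C57BL/6 and both sexes for BALB/c. No label names separate cages or litters, so p-values measure the spread between these mice.

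Adult limb muscle of the mouse mixes slow fibers, which use the type I chain of Myh7, with fast fibers of 3 kinds, which use Myh2 (type IIa), Myh1 (type IIx) or Myh4 (type IIb, the fastest). Myh3 encodes the embryonic chain and Myh8 the perinatal chain, both of which are known for developing and regenerating muscle. Myh13 encodes the superfast chain of the muscles that move the eye, and Myh7b a slow chain whose gene also holds the microRNA miR-499. Myh14 encodes a non-muscle chain, non-muscle myosin IIC, and is therefore not sarcomeric in spite of the name of the list. It was left out of the fiber type shares.

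In the GENCODE M21 annotation of GRCm38, 6 of the 9 genes stand in a row on the plus strand of chromosome 11, in the order Myh3 (chr11:67078300-67102291), Myh2 (chr11:67171027-67197517), Myh1 (chr11:67200052-67224575), Myh4 (chr11:67238029-67260446), Myh8 (chr11:67277124-67308634) and Myh13 (chr11:67321658-67371586). Myh7 (chr14:54970684-54994626) lies on the minus strand beside its cardiac paralog Myh6 (chr14:54941921-54966927). Myh7b is at chr2:155611212-155634307 on the plus strand and Myh14 at chr7:44605803-44670843 on the minus strand.

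The 250 bases before the start of the 3 adult fast genes are shown because these neighbors were the most abundant members. They are taken from RefSeq on GRCm38.p6, where the 9 symbols matched 10 promoter windows of 300 bases, which run from 250 bases before to 50 after the start. Each is written 5′ to 3′ on the plus strand and ends at the base before the start (chr11:67170777-67171026 for Myh2, chr11:67199852-67200101 for Myh1 and chr11:67237562-67237811 for Myh4). Capitals mark every run of at least 10 bases that all 3 windows share.
Myh2: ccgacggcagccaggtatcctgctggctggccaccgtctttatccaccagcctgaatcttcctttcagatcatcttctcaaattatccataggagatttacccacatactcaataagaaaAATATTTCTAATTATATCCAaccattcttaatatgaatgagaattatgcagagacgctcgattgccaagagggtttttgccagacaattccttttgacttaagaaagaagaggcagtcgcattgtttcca
Myh1: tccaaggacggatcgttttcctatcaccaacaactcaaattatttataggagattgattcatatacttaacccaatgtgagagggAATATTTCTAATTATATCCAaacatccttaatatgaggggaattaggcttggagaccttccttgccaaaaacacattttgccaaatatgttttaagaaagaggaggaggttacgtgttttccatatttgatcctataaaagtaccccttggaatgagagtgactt
Myh4: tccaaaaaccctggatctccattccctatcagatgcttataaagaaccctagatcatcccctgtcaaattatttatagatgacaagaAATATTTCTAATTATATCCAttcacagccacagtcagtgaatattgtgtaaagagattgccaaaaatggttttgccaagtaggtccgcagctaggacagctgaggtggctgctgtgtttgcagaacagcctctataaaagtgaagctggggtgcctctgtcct
The 3 windows shared 1 such run, of 20 bases, which began 130 bases before the start of Myh2, 165 before that of Myh1 and 163 before that of Myh4. It was found in 3 of 32851 RefSeq promoter windows, which were these 3. On either strand, the letters TATAAA were present in the windows of Myh1, Myh2, Myh3, Myh4 and Myh8 and in 13.62% of all windows. A match to the MEF2 motif was present in those of Myh1, Myh4 and Myh8 (1.86% of all windows), and a CArG box in those of Myh4 and Myh13 (1.63% of all windows). The E-box letters CANNTG were present in 72.31% of all windows. Myh14 is shown beside them because it was the member that passed the test between groups. Its window lies on the minus strand (chr7:44670844-44671093), and capitals mark each CG.
Myh14: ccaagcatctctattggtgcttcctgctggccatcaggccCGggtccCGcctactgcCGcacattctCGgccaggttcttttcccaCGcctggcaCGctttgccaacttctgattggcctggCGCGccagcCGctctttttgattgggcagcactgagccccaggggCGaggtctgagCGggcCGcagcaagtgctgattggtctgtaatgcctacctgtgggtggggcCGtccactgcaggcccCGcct
The 300-base window of Myh14 held 18 CG, against 1 to 9 in the windows of the sarcomeric members and a median of 7 over all windows. Of all windows, 29.72% held at least as many.

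The libraries held from 35913190 to 61032708 counts on genes. Skeletal muscle fiber markers (Ckm, Acta1, Ttn, Des, Mb and Neb) summed to between 45099 and 92486 CPM (counts scaled to the library total) in the 16 libraries, and cardiac markers other than Myh6 to between 0.523 and 2.26 CPM. A set of 4 libraries stood apart from the other 12, namely CAC replicate 4, AM replicates 1 and 3 and KD replicate 1, of which 2 are labelled C57BL/6 and 2 BALB/c. In these 4 libraries Nnt, a mitochondrial transhydrogenase known to be defective in a C57BL/6 substrain, was at 50.2 to 119 CPM, against 5.66 to 18.9 CPM in the others, and H2-Q2 was at 1.39 to 4.84 CPM, against at most 0.0691 CPM. Neither gene followed the labelled strain. Wrong strain labels or exchanged samples are therefore possible and were not tested, and every value within a strain, strain term and interaction rests on the labels as given. KD replicate 3 had 0 counts of the Y-linked genes Ddx3y, Uty, Kdm5d and Eif2s3y, which had counts in the other 15 libraries. The fold changes of the members without the libraries that stood apart at Nnt are given for each comparison, and these fits kept KD replicate 3.

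All 9 members had counts in every library, and all 9 passed the filter on low counts in each comparison. Levels are compared between genes as FPKM, which divides counts by gene length and library total. Myh4 was the most abundant member in 16 of 16 libraries, with a mean of 5519 FPKM, followed by Myh1 (717.3), Myh2 (416.8) and Myh7 (388.4). The other 5 stood far lower, with mean FPKM of 12.4 for Myh14, 9.342 for Myh8, 1.623 for Myh7b, 1.134 for Myh3 and 1.052 for Myh13. Myh4 exceeded Myh1, Myh1 exceeded Myh2, Myh7 exceeded Myh14 and Myh8 exceeded Myh7b in all 16 libraries. Neighbors that were not separated in this way were Myh2 and Myh7 (Myh2 higher in 13 of 16), Myh14 and Myh8 (10 of 16), Myh7b and Myh3 (12 of 16) and Myh3 and Myh13 (6 of 16).

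The length behind an FPKM value bears on such comparisons between genes. The lengths implied by the deposited values matched the mean length of a gene's protein-coding transcripts in GENCODE M21, which for Myh7 was 2316 bases, while its longest transcript has 6230 bases. The deposited FPKM of Myh7 is therefore 2.69 times the value that the longest transcript would give. The same ratio was 1.303 for Myh1, 1.454 for Myh8, 1.305 for Myh13 and 1.284 for Myh14, and between 1.0 and 1.009 for Myh2, Myh3, Myh4 and Myh7b. With the longest transcripts the order of the 9 means stayed as above, the mean of Myh7 was 144.4 FPKM and Myh2 exceeded Myh7 in 16 of 16 libraries. Myh1 then exceeded Myh2 in 14 of 16, the exceptions being CAC replicate 4 and KD replicate 2, Myh14 exceeded Myh8 in 13 and Myh3 exceeded Myh13 in 7. Comparisons of 1 gene between mice do not depend on its length.

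Reads of near-identical copies add a further limit. Of the 31-base words in its transcripts, Myh1 shared 37.92% with other genes, Myh2 32.83%, Myh4 30.4% and Myh7 22.87%, the last mainly with Myh6. Myh14 shared 0.48% and Myh7b 0.17%. How the authors assigned reads that match several genes is not given in the sources used here, nor is strand, so reads of Myh1 and its antisense gene Myhas, or of Myh7 and its antisense gene Mhrt, cannot be told apart.

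**Figure D1:**
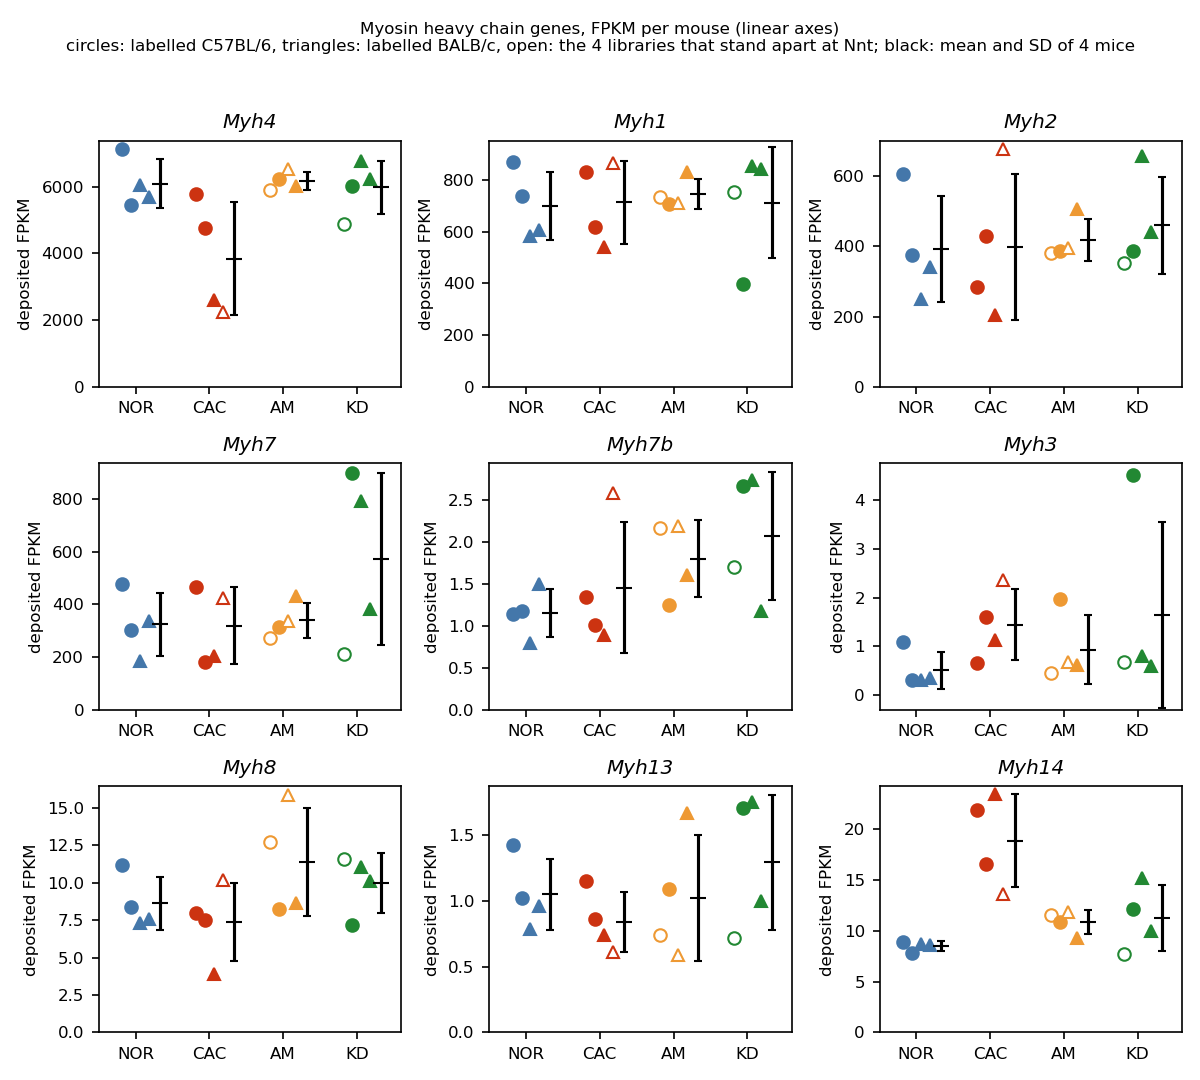
Deposited FPKM of each of the 9 genes (1 panel per gene, linear vertical axis that includes 0, own scale) in the 4 mice of each group, with circles for mice labelled C57BL/6, triangles for mice labelled BALB/c, open symbols for the 4 libraries that stood apart, and black marks for the group mean and SD (n = 4). All 4 CAC mice lie above all 4 NOR mice for Myh14, and the lowest Myh4 values, 2592 and 2239 FPKM, belong to CAC replicates 3 and 4.

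The comparison of CAC with NOR asks what a tumor changed in the muscle. Of the 9 genes, Myh14 rose and no sarcomeric member passed the test. In FPKM, Myh14 was at 8.9, 7.85, 8.74 and 8.65 in NOR replicates 1 to 4 and at 21.92, 16.57, 23.45 and 13.66 in CAC replicates 1 to 4. The groups did not overlap, and the highest NOR mouse was below the lowest CAC mouse. The mean rose from 8.54 ± 0.468 FPKM to 18.9 ± 4.57 FPKM (SD, n = 4), a fitted 2.02-fold rise (log2 fold change 1.02, SE 0.18, adjusted p = 0.0111 by edgeR's quasi-likelihood test with Benjamini-Hochberg adjustment over all genes tested). Among all 14666 genes tested, 9.45% passed in either direction (633 rose and 753 fell), and for 24.6% the FPKM values of the groups did not overlap. For the 9 members these counts were 1 passed and 1 without overlap, both Myh14. Without CAC replicate 4, the only library of this comparison that stood apart, the log2 fold change of Myh14 was 1.15 (adjusted p = 0.00638). Within the mice labelled C57BL/6 it was 1.16 (adjusted p = 0.0852) and within those labelled BALB/c 0.90 (adjusted p = 0.209), each with 2 mice against 2.

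Myh14 is expressed in many cell types, so markers of other cells are given beside it. Erythrocyte markers (Hba-a1, Hba-a2, Hbb-bs, Hbb-bt and Alas2) moved the same way: 5 of 5 rose in CAC (median log2 fold change 2.30), and they summed to 884 to 1390 CPM in NOR and 3857 to 8283 CPM in CAC. The markers were highest in KD replicate 2 (18056 CPM, with Myh14 at 12.15 FPKM) and AM replicate 2 (15867 CPM, with Myh14 at 10.84 FPKM). KD replicate 3, the KD mouse with the highest Myh14 (15.25 FPKM), had 2995 CPM of these markers. AM replicates 1, 3 and 4 had Myh14 at 11.6, 11.89 and 9.27 FPKM. Tendon markers (Tnmd, Scx, Fmod, Thbs4 and Mkx) summed to 597 to 834 CPM in NOR and 222 to 461 CPM in CAC, and 2 of the 5 fell. Skeletal muscle fiber markers summed to 72959 to 92486 CPM in NOR and to 45099 to 72510 CPM in CAC, without overlap, and 1 of the 6, Des (desmin), passed and rose. Lymphocyte markers summed to between 0.852 and 2.83 CPM in NOR replicate 1, CAC replicates 1 and 4 and KD replicates 2 and 3, and to between 26.6 and 360 CPM in the other 11 libraries. Ranges for NOR and CAC overlapped for macrophage (147 to 483 and 351 to 740 CPM), smooth muscle (594 to 685 and 570 to 738 CPM), adipocyte (77.0 to 841 and 55.4 to 986 CPM), Schwann cell (225 to 269 and 156 to 264 CPM) and epithelial markers (2.05 to 2.98 and 1.96 to 5.37 CPM). The part of these cells in the change of Myh14, and in the values of the other members, was not tested.

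Myh4, the type IIb gene, was at 7130, 5463, 6042 and 5697 FPKM in NOR replicates 1 to 4 and at 5776, 4773, 2592 and 2239 FPKM in CAC replicates 1 to 4. Of the CAC mice labelled C57BL/6, 1 lay within the NOR range and 1 below it, while those labelled BALB/c stood below every other mouse of the study. The means were 6083 ± 737 and 3845 ± 1707 FPKM (SD, n = 4), with a log2 fold change of -0.76 (SE 0.40) that did not pass (adjusted p = 0.251 by edgeR). It was -0.30 within the mice labelled C57BL/6 and -1.46 within those labelled BALB/c, and -0.56 (adjusted p = 0.43) without CAC replicate 4.

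Neither Myh1 nor Myh2 passed. Myh1, the type IIx gene, was at 869.5, 739.1, 584.8 and 606.9 FPKM in NOR and at 831.5, 615.9, 539.1 and 866.7 FPKM in CAC, with a log2 fold change of -0.10 (SE 0.27, adjusted p = 0.861). Myh2, the type IIa gene, was at 605.3, 374.6, 250.1 and 342.2 FPKM in NOR and at 284.0, 427.8, 203.8 and 676.2 FPKM in CAC (log2 fold change -0.13, SE 0.45, adjusted p = 0.892). The groups overlapped for both genes, and both differences turned positive when libraries were scaled by total counts (0.03 and 0.02), a scaling that moved the median of all genes from 0.01 to 0.14. Without CAC replicate 4 the log2 fold changes of Myh1 and Myh2 were -0.19 and -0.49 (adjusted p = 0.747 and 0.532).

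The slow gene Myh7 was at 476.4, 300.9, 185.5 and 335.1 FPKM in NOR and at 467.2, 181.4, 203.5 and 422.6 FPKM in CAC (log2 fold change -0.15, SE 0.43, adjusted p = 0.862). Myh7b, the other slow chain, ranged from 0.80 to 1.5 FPKM in NOR and from 0.89 to 2.59 FPKM in CAC (log2 fold change 0.22, adjusted p = 0.749). Of the developmental genes, Myh3 was at 1.08, 0.31, 0.31 and 0.35 FPKM in NOR and at 0.66, 1.61, 1.14 and 2.36 FPKM in CAC. In 15 of the 16 pairs of a CAC and a NOR mouse the CAC mouse had more Myh3, and NOR replicate 1 made the overlap. The log2 fold change of 1.301 (SE 0.58) did not pass with all 8 libraries (adjusted p = 0.177) and was 2.11 (adjusted p = 0.0266) without NOR replicate 1. Myh8 had values of 7.34 to 11.21 FPKM in NOR and 3.9 to 10.18 FPKM in CAC (log2 fold change -0.34, adjusted p = 0.553), and Myh13 had 0.79 to 1.43 and 0.61 to 1.15 FPKM (log2 fold change -0.45, adjusted p = 0.398). Without CAC replicate 4, Myh7b changed sign, to a log2 fold change of -0.19 (adjusted p = 0.725), while Myh3 was at 0.965, Myh7 at -0.30, Myh8 at -0.52 and Myh13 at -0.31 (adjusted p of 0.344 to 0.752).

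Because Myh4 makes up most of the heavy chain RNA, the summed FPKM of the 9 genes followed it. The sum was 9104, 6897, 7081 and 7001 in NOR and 7391, 6025, 3569 and 4234 in CAC. The 9 genes took 3.91% to 5.15% of all counts in NOR, 1.98% to 4.13% in CAC libraries, 4.16% to 4.56% in AM and 3.54% to 5.03% in KD. In whole muscle, fewer fibers of a type and less RNA per fiber cannot be told apart.

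**Figure D2:**
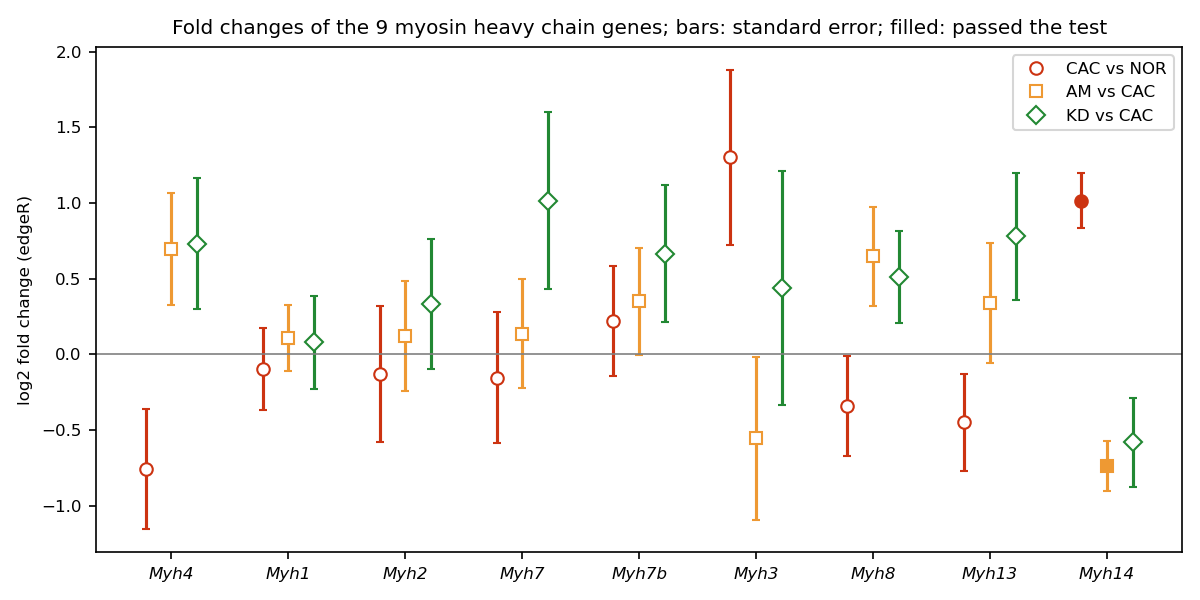
Log2 fold change (vertical axis, bars for ± 1 SE) of each of the 9 genes in the 3 comparisons (CAC vs NOR, AM vs CAC, then KD vs CAC), with filled points for genes that passed the edgeR test. Only Myh14 in CAC vs NOR (1.02) and in AM vs CAC (-0.74) is filled, and the same 4 CAC mice enter all 3 comparisons.

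The comparison of AM with CAC asks what amiloride changed in tumor-bearing mice. It uses the same 4 CAC mice as the comparison above, so a CAC mouse that stood high or low entered both. Myh14 was at 11.6, 10.84, 11.89 and 9.27 FPKM in AM replicates 1 to 4 (mean 10.9 ± 1.17, SD, n = 4), below all 4 CAC mice and above all 4 NOR mice. It fell to 0.599 times the CAC level (log2 fold change -0.74, SE 0.17, adjusted p = 0.0447 by edgeR's quasi-likelihood test with Benjamini-Hochberg adjustment). Among all 14674 genes tested, 3.66% passed (239 rose and 298 fell), and for 15.3% the groups did not overlap. Of the 9 members, 1 passed and 2 did not overlap, Myh14 and Myh4. The call of Myh14 was close to the limit: leaving out any mouse other than CAC replicate 4 ended it (adjusted p of 0.0844 to 0.116), as did leaving out the 3 libraries that stood apart (log2 fold change -0.94, adjusted p = 0.121). It was also lost with the labelled strain as a term (adjusted p = 0.0693), the replicate block (0.146), RLE factors (0.0508) and all 16 libraries in 1 fit (0.116), and held with DESeq2 (0.00323). The log2 fold change was -0.88 within C57BL/6 and -0.60 within BALB/c (adjusted p = 0.183 and 0.435).

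Myh4 was at 5895, 6215, 6535 and 6029 FPKM in AM replicates 1 to 4 (mean 6168 ± 277, SD, n = 4). All 4 AM mice were above all 4 CAC mice, although CAC replicate 1, at 5776 FPKM, was close beneath the lowest. The log2 fold change was 0.70 (SE 0.37) and did not pass (adjusted p = 0.327). It was 0.10 within the mice labelled C57BL/6 and 1.58 within those labelled BALB/c, 2 mice against 2 in each. Tendon markers again moved with the groups, at 466 to 734 CPM in AM against 222 to 461 CPM in CAC, and 2 of the 5 passed and rose. Skeletal muscle fiber markers did so too, at 75854 to 82889 CPM against 45099 to 72510 CPM (1 of 6, Des, fell). Schwann cell markers were at 305 to 549 CPM against 156 to 264 CPM. Of the Schwann cell markers 0 of 4 passed by edgeR and 2 had p under 0.05, against 21.7% of all genes. The part of all these cells in the values of Myh4 and Myh14 was not tested.

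For the other members the AM and CAC values overlapped. Myh1 was at 733.5, 704.9, 711.3 and 828.8 FPKM in AM (log2 fold change 0.11, adjusted p = 0.832), Myh2 at 379.6, 387.4, 394.9 and 507.2 FPKM (0.12, adjusted p = 0.892) and Myh7 at 273.8, 314.4, 337.3 and 431.6 FPKM (0.14, adjusted p = 0.871). The 4 AM mice lay closer together than the 4 CAC mice for each of the 4 adult genes, with SDs of 277, 57.4, 60.3 and 67.0 FPKM for Myh4, Myh1, Myh2 and Myh7, against 1707, 161, 207 and 147 FPKM in CAC. No test of the spread was made. Myh8 ranged from 8.25 to 15.86 FPKM in AM (log2 fold change 0.65, adjusted p = 0.303), and its highest values, 12.74 and 15.86, were in the AM libraries that stood apart. Myh3 (0.46 to 1.98 FPKM, log2 fold change -0.55), Myh7b (1.25 to 2.19 FPKM, 0.35) and Myh13 (0.59 to 1.67 FPKM, 0.34) had adjusted p of 0.61, 0.627 and 0.682. Without the 3 libraries that stood apart Myh3 changed sign, to a log2 fold change of 0.27 (adjusted p = 0.875), and the others were at 0.53 (Myh4), 0.28 (Myh1), 0.61 (Myh2), 0.45 (Myh7), 0.44 (Myh8), 0.47 (Myh7b) and 0.66 (Myh13), with adjusted p of 0.446 to 0.756.

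The comparison of KD with CAC asks what knocking down Rab27 in the tumor cells changed in the muscle, and uses the same CAC mice again. No member passed, and none was without overlap. The background was also low, since 0.00685% of 14593 genes passed (1 gene, Il6ra, which encodes a chain of the interleukin-6 receptor and fell by 1.72 on the log2 scale), while 10.1% did not overlap. None of the 9 members had an unadjusted p under 0.05 by edgeR, which 11.1% of all genes had, and DESeq2 called 0 of the 9. With DESeq2, 327 of all genes passed.

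Myh7 was at 212.3, 899.6, 791.6 and 381.6 FPKM in KD replicates 1 to 4. Replicates 2 and 3 stood above every other mouse of the study, while replicate 1 lay near the lowest values of CAC. The log2 fold change was 1.02 (SE 0.58, adjusted p = 0.561). With each mouse left out it ranged from 0.633 (without KD replicate 2) to 1.328 (without CAC replicate 1), and was 0.805 without KD replicate 3. Myh4 was at 4888, 6015, 6774 and 6243 FPKM in KD, higher than CAC in 15 of 16 pairs (log2 fold change 0.73, SE 0.43, adjusted p = 0.57), with 0.08 within C57BL/6 and 1.69 within BALB/c. Myh14 was at 7.68, 12.15, 15.25 and 9.98 FPKM, with KD replicate 3 above CAC replicate 4 (log2 fold change -0.58, SE 0.30, adjusted p = 0.516).

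Myh1 was at 751.4, 397.8, 854.1 and 842.3 FPKM in KD and Myh2 at 351.0, 387.4, 656.5 and 441.1 FPKM (log2 fold changes 0.08 and 0.33, adjusted p = 0.968 and 0.852). KD replicate 2 held both the lowest Myh1 value and the highest Myh7 and Myh3 values of the study. Its Myh3, at 4.51 FPKM, stood far from the 0.59 to 0.81 FPKM of the other 3 KD mice (log2 fold change 0.44, SE 0.77, adjusted p = 0.908), and without this library the log2 fold change turned to -0.98 (adjusted p = 0.315). Erythrocyte markers were also highest in this library, at 18056 CPM against 2250 to 4552 CPM in the other KD mice, and their part was not tested. Myh7b, Myh8 and Myh13 had log2 fold changes of 0.66, 0.51 and 0.78 with adjusted p of 0.642, 0.576 and 0.541. Without CAC replicate 4 and KD replicate 1, the log2 fold change of Myh7 was 1.49 (adjusted p = 0.514), and the others were at 0.69 (Myh4), -0.50 (Myh14), 0.23 (Myh1), 0.88 (Myh2), 1.07 (Myh3), 1.24 (Myh7b), 0.71 (Myh8) and 0.91 (Myh13), with adjusted p of 0.51 to 0.839.

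Whether the 2 labelled strains, and with them the 2 tumor lines, differed in a group difference was tested as an interaction over all genes. For Myh4 the log2 fold change of C57BL/6 minus that of BALB/c was 1.10 in CAC vs NOR (SE 0.44, unadjusted p = 0.0446 by edgeR, adjusted p = 0.9985). In AM vs CAC it was -1.48 (SE 0.30, unadjusted p = 0.00212 by edgeR, adjusted p = 0.2694), and in KD vs CAC -1.61 (SE 0.57, unadjusted p = 0.0281 by edgeR, adjusted p = 0.8539). These 3 differences share the 4 CAC mice, of which the BALB/c mice were the low ones. By edgeR 0 genes had an adjusted p of at most 0.05 for the interaction in each comparison (717, 1821 and 825 genes had p under 0.05), and DESeq2 gave 119, 426 and 95. With DESeq2 Myh4 was among them in AM vs CAC (adjusted p = 9.68e-07). By edgeR no member had an interaction with an adjusted p under 0.05.

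Fiber type shares were taken as the percentage of each gene in the summed FPKM of Myh7, Myh2, Myh1 and Myh4 of a mouse. In replicates 1 to 4, Myh4 took 78.5, 79.4, 85.6 and 81.6% of the NOR sum, 78.5, 79.6, 73.3 and 53.2% of the CAC sum, 81.0, 81.5, 81.9 and 77.3% of the AM sum and 78.8, 78.1, 74.6 and 78.9% of the KD sum. CAC replicates 1 and 2 lay among the other groups, replicate 3 just below them, and CAC replicate 4, which also stood apart at Nnt, far below. Myh1 took 8.28 to 10.7% in NOR, 10.3 to 20.6% in CAC, 8.92 to 10.6% in AM and 5.17 to 12.1% in KD. Myh2 took 3.54 to 6.67%, 3.86 to 16.1%, 4.95 to 6.51% and 5.03 to 7.23%, and Myh7 took 2.63 to 5.25%, 3.03 to 10.1%, 3.76 to 5.54% and 3.42 to 11.7%. For Myh1, Myh2 and Myh7 alike the highest CAC share was in CAC replicate 4, and the highest Myh7 share of all was in KD replicate 2.

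None of the 12 share differences passed a two-sided exact permutation test of 4 mice against 4, for which the smallest possible p is 0.0286, and the ranges of the groups overlapped for each. After adjustment over the 12 tests, a single difference at that smallest p could not pass alone. Several would have to reach it together, so the test had little power to find a difference. For Myh4, group means of the share were 81.3 ± 3.13% (NOR), 71.1 ± 12.2% (CAC), 80.4 ± 2.11% (AM) and 77.6 ± 2.03% (KD), as mean and SD of 4 mice. Its difference was -10.1 points in CAC vs NOR (exact permutation p = 0.114, adjusted p = 0.343 over the 12 tests), 9.29 points in AM vs CAC (p = 0.0857, adjusted p = 0.343) and 6.48 points in KD vs CAC (p = 0.4, adjusted p = 0.533), all by the exact permutation test. Without the 4 libraries that stood apart these were -4.17, 2.33 and 0.13 points (exact permutation p = 0.229, 0.6 and 1.0). The smallest possible p is higher with these fewer mice, and no share could have passed, so these tests cannot decide. Within C57BL/6 the differences of Myh4 were 0.06, 2.22 and -0.57 points and within BALB/c -20.3, 16.4 and 13.5 points.

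For Myh1 the mean share was 9.32 ± 1.09% in NOR and 14.4 ± 4.69% in CAC, a difference of 5.03 points (exact permutation p = 0.0571, adjusted p = 0.343), and the difference was -4.64 points in AM vs CAC (exact permutation p = 0.0571, adjusted p = 0.343) and -5.02 points in KD vs CAC (exact permutation p = 0.143, adjusted p = 0.343). Without the 4 libraries these differences of Myh1 were 2.94, -2.33 and -3.86 points (exact permutation p = 0.114, 0.4 and 0.2), within C57BL/6 they were 0.624, -1.12 and -2.14 points and within BALB/c 9.44, -8.15 and -7.89 points. Myh2 and Myh7 differed by 3.07 and 2.03 points in CAC vs NOR (exact permutation p = 0.343 and 0.257), and by 0.445 and 0.78 points without CAC replicate 4 (exact permutation p = 0.686 and 0.514). As for Myh4, no share of these genes could have passed in the tests without libraries, which had too few mice. Within C57BL/6 the differences of Myh2 and Myh7 were -0.56 and -0.123 points, and within BALB/c 6.7 and 4.19 points. In KD vs CAC the share of Myh7 differed by 0.869 points, with means of 7.16 ± 3.76% and 6.29 ± 2.89% (exact permutation p = 0.714), and by 3.37 points without the 4 libraries (exact permutation p = 0.3). The length behind the FPKM moved the level of these shares: with the longest transcript of each gene, Myh7 took 1.02 to 4.79% in the 16 mice, and the mean share of Myh4 was 85.3 ± 2.53, 76.4 ± 11.3, 84.6 ± 1.7 and 83.1 ± 1.9% in NOR, CAC, AM and KD.

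**Figure D3:**
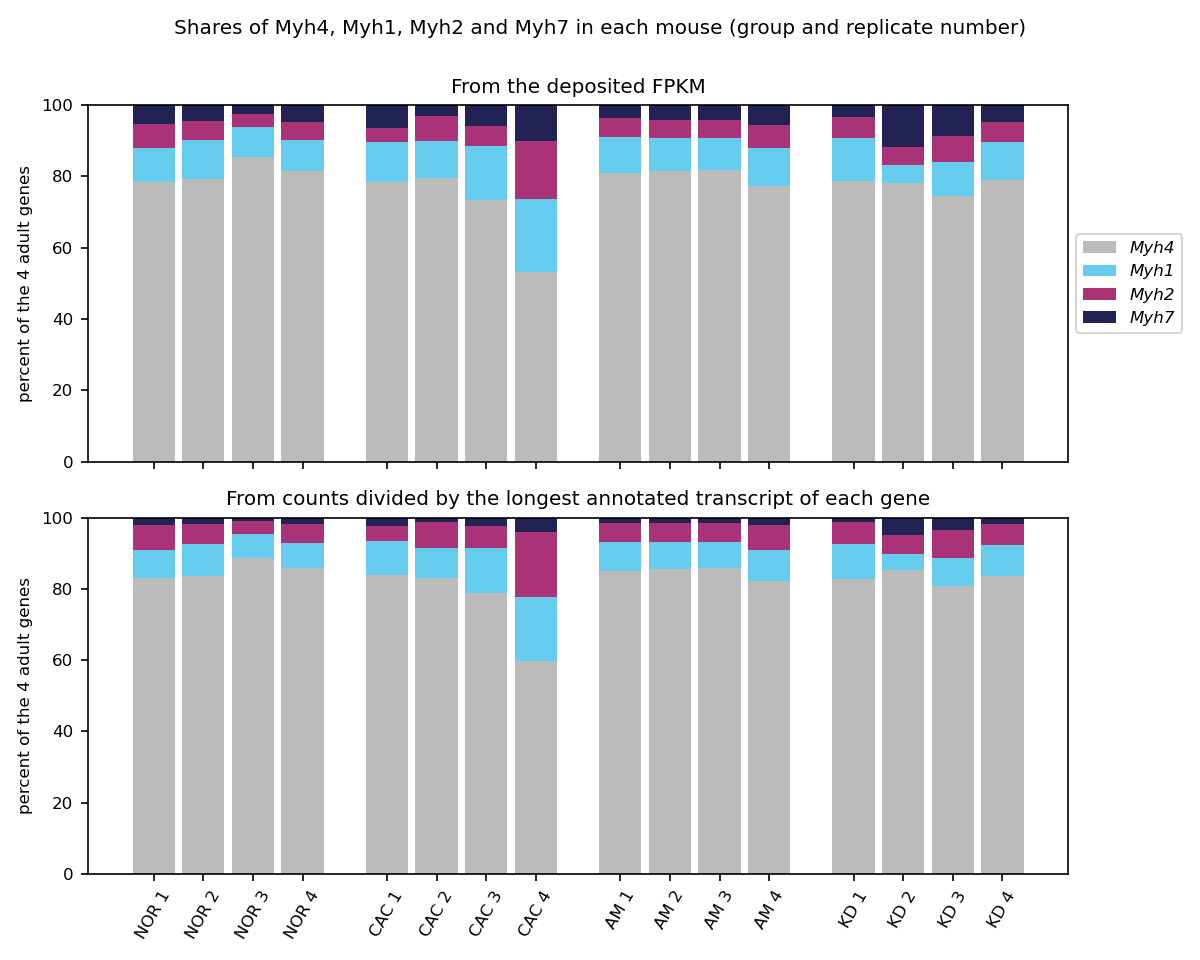
Stacked bars for each of the 16 mice give the percentage of Myh7, Myh2, Myh1 and Myh4 in their summed level, from the deposited FPKM (top) and from counts divided by the longest transcript (bottom), on an axis from 0 to 100%. The Myh4 share of CAC replicate 4 is 53.2% at the top, while the other 15 mice lie between 73.3 and 85.6%.

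Myh6, the cardiac alpha chain beside Myh7, is no member but separated the libraries that stood apart. It was at 34.4 to 81.0 FPKM in these 4 and at 2.21 to 11.9 FPKM in the other 12. Cardiac markers were low in all 16 libraries, as given above, and Myl7, the atrial light chain, had 0 counts in all NOR, AM and KD libraries. The log2 fold change of Myh6 in CAC vs NOR was 2.21 (SE 1.13, adjusted p = 0.236), carried by CAC replicate 4 at 81.02 FPKM against 2.91 to 5.91 FPKM in the other CAC mice. Of its 31-base words, 29.06% are shared with Myh7. Of the other class II chains, Myh9 and Myh10 (both non-muscle) and Myh11 (smooth muscle), tested with Myh6, 0 of 4 passed in any comparison by edgeR, 0 had p under 0.05 and DESeq2 called 0. Over all genes, the percentages with p under 0.05 were 29.1, 21.7 and 11.1 in the 3 comparisons in the order used above. Myh9 was at 143.3 FPKM in NOR and 179.1 FPKM in CAC (means, log2 fold change 0.21) and Myh11 at 24.48 and 26.01 FPKM (-0.04), and Myh15 was below the filter.

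Partner genes of the heavy chains were described by lists. Of 11 genes of fast fibers, 1 rose and 2 fell in CAC vs NOR, against 9.45% of all genes called, and 6 had p under 0.05, against 29.1%. With DESeq2, with the strain term and with limma on FPKM 6 of the 11 passed, with total counts 5, and within either strain 0. Over all genes 1979 passed with DESeq2, 1492 with the strain term, 1293 with limma on FPKM and 1578 with total counts. Within C57BL/6 247 passed, and within BALB/c 0. The median log2 fold change was -0.25, against 0.01 over all genes. Myl1, the essential light chain that binds the fast heavy chains, was at 9573, 9854, 8869 and 8407 FPKM in NOR and at 3523, 4551, 1706 and 1428 FPKM in CAC. It fell by 1.80 on the log2 scale (SE 0.42, adjusted p = 0.0273), without overlap. Casq1, the calcium store protein of fast fibers, was at 2434 to 3459 FPKM in NOR and at 383.9 to 968.3 FPKM in CAC, and fell by 2.27 (adjusted p = 0.00858). Mylk2, the kinase that phosphorylates the regulatory light chain, rose by 0.68 (adjusted p = 0.0143). With each mouse left out in turn, Casq1 passed in 8 of 8 fits, while Myl1 lost its call in 4 (largest adjusted p = 0.0678) and Mylk2 in 1 (adjusted p = 0.0525, without NOR replicate 2). Mylk2 also lost its call by edgeR with all 16 libraries in 1 fit (adjusted p = 0.168). Without CAC replicate 4 all 3 passed. The most abundant genes of the list, Tnnt3 (fast troponin T) and Atp2a1 (the fast calcium pump SERCA1), had log2 fold changes of -0.20 and 0.02 and did not pass.

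Of 11 genes of slow fibers, 0 passed in CAC vs NOR by edgeR (median 0.10), 1 had p under 0.05, against 29.1% of all genes, and DESeq2 called 1. Mb (myoglobin) and Myl3 (a slow essential light chain) had log2 fold changes of -0.59 and -0.78 (adjusted p = 0.324 and 0.217). Among 12 genes of the thick filament and of myosin folding, 1 rose and 2 fell (median -0.02), against 9.45% of all genes called, and 5 had p under 0.05, against 29.1%. DESeq2 called 4. Trim63, which encodes the ubiquitin ligase MuRF1 and is known to target myosin heavy chains, was at 238.7, 176.0, 142.8 and 187.2 FPKM in NOR and at 1418, 913.9, 1297 and 1023 FPKM in CAC. It rose by 2.50 on the log2 scale (SE 0.26, adjusted p = 0.00214). Smyd1, a methyltransferase needed for thick filament assembly, fell by 1.03 (adjusted p = 0.013) and Trim55, a relative of Trim63, by 0.90 (adjusted p = 0.0292), while Mybpc1 was at -0.13 and did not pass. The call of Trim55 was lost in 6 of 8 fits that left out a mouse, among them the fit without CAC replicate 4 (log2 fold change -0.81, adjusted p = 0.062), and those of Trim63 and Smyd1 in 0 of 8.

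Of 20 fiber type regulators, 0 rose and 3 fell (median -0.17), against 9.45% of all genes called, and 5 had p under 0.05, against 29.1%. DESeq2 called 5. The 3 were Mafa (log2 fold change -1.42, adjusted p = 0.0163) and Maf (-1.14, adjusted p = 0.0345), large Maf factors known to drive Myh4, and Mef2c (-0.78, adjusted p = 0.0361), a factor that binds muscle promoters. Mafa was at 14.38 to 25.08 FPKM in NOR and at 5.36 to 10.52 FPKM in CAC, without overlap. Leaving out any mouse other than NOR replicate 4 ended the call of Maf, and any other than CAC replicate 2 that of Mef2c, so that 0 to 2 of the 20 passed. Mafa lost its call in 1 of 8 such fits. Without CAC replicate 4, Maf was at -1.04 (adjusted p = 0.0763) and Mef2c at -0.73 (adjusted p = 0.0787). The most abundant regulators, Tbx15 and Mef2d, had log2 fold changes of -0.05 and -0.03 (Tbx15 at 0.11 without CAC replicate 4) and did not pass. Of 8 developmental and denervation genes tested, 2 rose and 1 fell (median 0.39), against 9.45% of all genes called, and 5 had p under 0.05, against 29.1%. DESeq2 called 5, as did total-count scaling, and the replicate block left 1. Actc1, the cardiac alpha actin of developing muscle, was at 515.4 to 1433 FPKM in NOR and at 8.17 to 34.34 FPKM in CAC, and fell by 5.38 (SE 0.75, adjusted p = 0.00476). Myog, the factor myogenin, rose by 1.22 (adjusted p = 0.0323) and Tnnt2, the cardiac troponin T of developing muscle, by 0.60 (adjusted p = 0.0447), while Myl4, the embryonic light chain, was at 0.70 and did not pass (adjusted p = 0.0927). Tnnt2 lost its call in 17 of 22 alternative fits, 7 of which left out a mouse (0.54, adjusted p = 0.0861 without CAC replicate 4), and Myog in 8, 5 of which left out a mouse, while Actc1 passed in 8 of 8 fits without a mouse. Of the 12 partner genes that passed in CAC vs NOR, Mafa and Maf passed within the mice labelled C57BL/6 (adjusted p = 0.0352 and 0.0381) and the other 10 did not (0.0531 to 0.222), and within those labelled BALB/c 0 of the 12 passed (adjusted p of 0.0526 for Actc1 to 0.477 for Tnnt2), with 2 mice against 2 in each.

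In AM vs CAC, Trim63 fell by 2.42 on the log2 scale (adjusted p = 0.00385), Casq1 rose by 1.72 (adjusted p = 0.0484) and Mafa rose by 1.27 (adjusted p = 0.0314). None of the 3 calls held without the libraries that stood apart (log2 fold changes -2.37, 1.81 and 1.48, adjusted p = 0.114, 0.204 and 0.17), and leaving out a single mouse ended that of Casq1 in 8 of 8 fits, that of Mafa in 6 and that of Trim63 in 0. With the labelled strain as a term, Trim63 passed (adjusted p = 0.0113) and Casq1 and Mafa did not (0.0782 and 0.0518), and within either strain alone none of the 3 passed (adjusted p of 0.146 to 0.255). With the replicate block none of them passed by edgeR (adjusted p = 0.0793 for Trim63, 0.213 for Casq1 and 0.128 for Mafa). In FPKM, Trim63 was at 195.1, 157.8, 198.8 and 280.2 in AM, near the NOR values. These 3 were the only genes of the 6 lists that passed in this comparison by edgeR, where 3.66% of all genes passed. They were 1 of 11 fast, 1 of 12 thick filament and 1 of 20 regulator genes. In these lists 4, 4 and 5 genes had p under 0.05, against 21.7% of all genes, and DESeq2 called 2, 2 and 3. Of 11 slow fiber genes, 8 developmental genes and 4 other class II chains 0 passed by edgeR. Of those, 1, 3 and 0 had p under 0.05, and DESeq2 called 0, 2 and 0. Over all genes DESeq2 called 1130 of 17718. In KD vs CAC, 0 genes of the 6 lists passed by edgeR, against 0.00685% of all genes. There 3 of 11 fast, 1 of 11 slow, 3 of 12 thick filament, 3 of 20 regulator, 1 of 9 developmental and 0 of 4 other genes had p under 0.05, against 11.1% of all genes. DESeq2 called 2, 0, 1, 2, 1 and 0 of them, and 327 of 17654 over all genes. Trim63 was at 61.55, 463.3, 175.1 and 166.0 FPKM in KD (log2 fold change -2.21, adjusted p = 0.277).

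**Figure D4:**
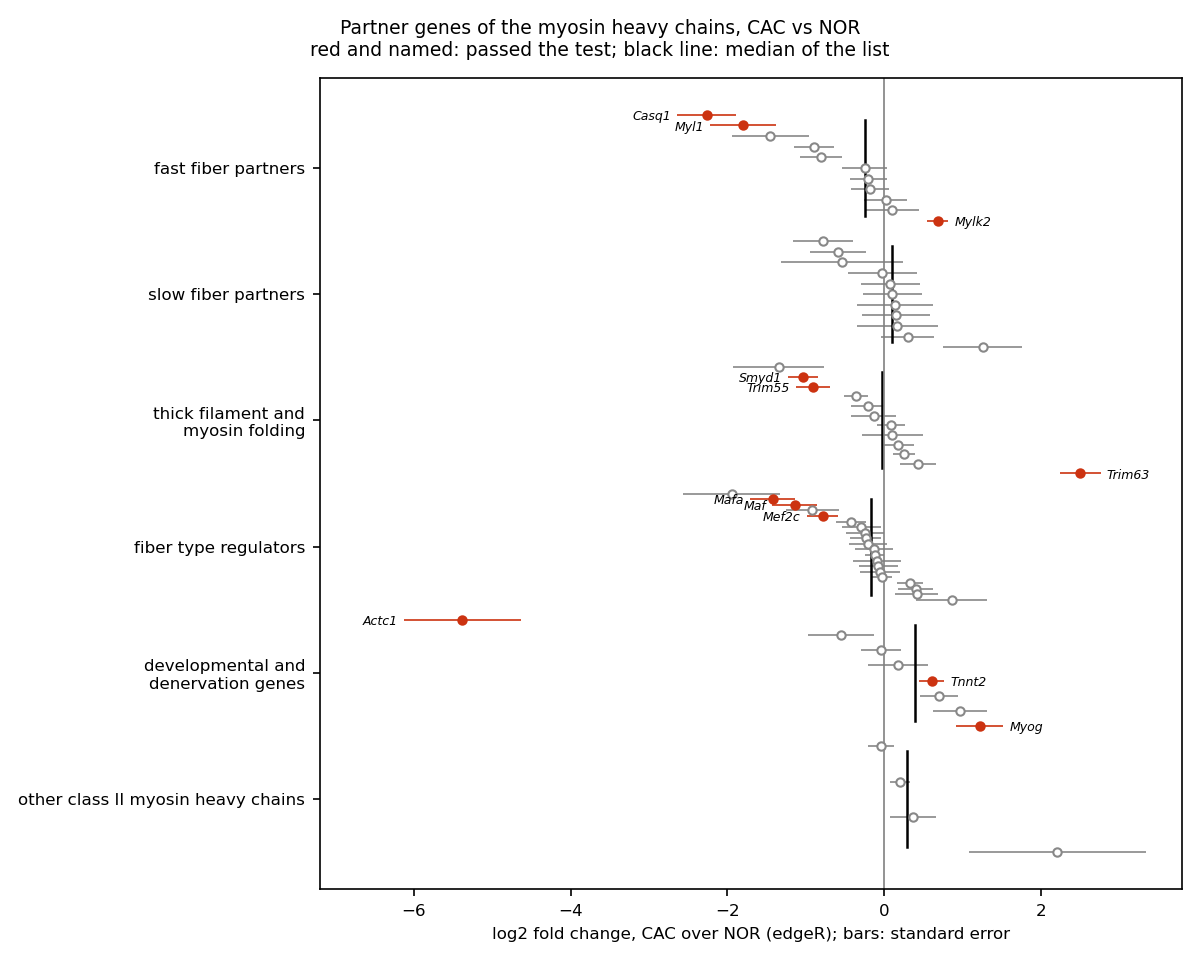
Log2 fold change in CAC vs NOR (horizontal axis, bars for ± 1 SE) of each tested gene of 6 lists, 1 row per list, with named red points for genes that passed the edgeR test and a black line for the median of the list. Trim63 (2.50) and Actc1 (-5.38) lie farthest from 0 among the genes that passed, and no slow fiber gene is red.

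The genes whose log2 CPM ran most alike with a member over the 16 libraries are given as a description, since the points share the groups, the CAC mice and the scaling. For Myh4 they were Pygm (Pearson's r 0.969), Tpm1 (0.96) and Phkb (0.939), for Myh1 Adcy9 (0.905), Fam185a (0.871) and Wdfy3 (0.865), and for Myh2 Mybpc1 (0.923), Gys1 (0.917) and Atp1b1 (0.907). For Myh7 they were Atp2a2 (0.946), Tnni1 (0.943) and Myl2 (0.923), all 3 of which stand in the list of slow fiber genes. For Myh14 they were Mybbp1a (0.974), Impdh2 (0.958) and Bsdc1 (0.957). Without the 4 libraries that stood apart these 15 values lay between 0.893 and 0.995. Between members, r was highest for Myh7 with Myh13 (0.798), Myh7 with Myh7b (0.752) and Myh1 with Myh2 (0.708), and lowest for Myh8 with Myh14 (-0.251) and Myh4 with Myh14 (-0.155).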

How the data were processed

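Poly(A)-selected RNA of 16 gastrocnemius muscles was measured by RNA-seq, and the submitters' processing notes list fastp, Bowtie2, HISAT2, StringTie 1.3.1 and the builds mm9 and GRCm38 without their roles. The authors deposited whole-number read counts per gene, without normalization, for 16 libraries of 35913190 to 61032708 counts. The authors also deposited FPKM, the counts scaled by library total and by a single length for each gene. Of 21923 genes, 3719 had no counts.

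Groups came from the labels. Counts were analysed with edgeR 4.0.16 in R 4.3.3 (TMM, filterByExpr with a minimum count of 10 and total of 15, quasi-likelihood F test with Benjamini-Hochberg adjustment over all genes tested) on the 8 libraries of each comparison. This replaced NOISeq, the tool of the study, which was not installed. A gene passed when its adjusted p was no higher than 0.05 and it differed by a factor of 1.5 or more upward, or 0.667 or less downward. The SE is the log2 fold change divided by the square root of F. Shares used the deposited FPKM and a two-sided exact permutation test. The precision is set by the 4 mice per group and, for the low members Myh3, Myh7b and Myh13, also by counting.

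The members and the gene lists (fast, slow, thick filament, regulator, developmental and other class II genes, and markers of muscle, smooth muscle, tendon, adipocytes, lymphocytes, macrophages, epithelium, Schwann cells, erythrocytes and heart) were chosen with earlier results of these data known. All members were described, with the 2 most abundant genes of each of the first 6 lists, up to 3 of its genes with the largest change among those that passed in CAC vs NOR, and the 3 genes most correlated with each of 5 members. Other genes named (Nnt, H2-Q2, Il6ra, Y-linked genes, markers) were chosen after their values were seen. Of 21 regulators, 20 were in the table.

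Alternatives were other scalings and filters, fits with a strain term or with the replicate number, each labelled strain alone, each mouse left out, all 16 libraries in 1 fit, other fold change limits, DESeq2 1.42.0, and limma 3.58.1 (voom, and log2 of FPKM plus 1). Shares from longest transcripts and fits without the 4 libraries that stood apart were chosen after seeing the data. The main edgeR fit of each comparison was also run on simulated counts, and those results are not given here. Identifiers were matched to GENCODE M21 (21905 matched, 18 did not).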

Additional observations from a re-analysis of the deposited data

Results flagged for a closer look

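Strain differences of Myh4 were noted in all 3 comparisons, because the unadjusted interaction test by edgeR passed 0.05 in each. The log2 fold change of the mice labelled C57BL/6 minus that of the mice labelled BALB/c was 1.10 for CAC vs NOR, -1.48 for AM vs CAC, and -1.61 for KD vs CAC. After adjustment over all genes none of the 3 passed by edgeR, and the 3 values share the 4 CAC mice, of which CAC replicates 3 and 4 held 2592 and 2239 FPKM of Myh4. Of 27 member interactions examined, these 3 had an unadjusted p under 0.05.

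Among 52 groups of 4 mice examined for a single mouse far from the other 3, 5 had one. The limit used is passed by about 1 in 20 independent groups of normally distributed values. These groups were not independent, since FPKM and shares of the same mice were both examined, so no excess is claimed. Myh3 accounted for 3 of them, at 1.08 FPKM in NOR replicate 1, 1.98 FPKM in AM replicate 2 and 4.51 FPKM in KD replicate 2, each far above the other mice of its group. Myh2 accounted for the others, in AM replicate 4, with 507 FPKM and a share of 6.51%. AM replicate 2 and KD replicate 2 also had the highest sums of erythrocyte markers in the study (15867 and 18056 CPM), and a part of these cells in the Myh3 values was not tested.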

How the results depend on the processing

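Of 591 alternative values of the 27 member fold changes, 533 kept their direction and side of the threshold, 38 changed sign, 19 no longer passed and 1 newly passed, and of 192 alternative values of the 12 shares, 182 kept both. The sign changes concern values that did not pass the test. The causes were not tested, except that fits on fewer mice have less power.

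In CAC vs NOR, 1 member (Myh14) passed under all alternatives except each labelled strain alone, where 0 passed, and without NOR replicate 1, where Myh3 passed too (range 1 to 2 with each mouse left out). In AM vs CAC, the 1 member that passed (Myh14) became 0 with RLE factors, upper-quartile factors, TMM computed without the members, no count filter, the strain term, the replicate block, either strain alone, all 16 libraries in 1 fit, a fold change limit of 2 and without the 4 libraries that stood apart, with a range of 0 to 1 when each mouse was left out. Its adjusted p over all alternatives lay between 0.00323 and 0.435. In KD vs CAC, 0 members passed under each alternative.

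Genes that passed in CAC vs NOR numbered 1386, against 247 with C57BL/6 alone, 0 with BALB/c alone, 768 at a fold change limit of 2 and 728 to 1272 with a mouse left out. Higher counts were 1578 with total counts, 1979 with DESeq2 and 2048 with no fold change limit. In AM vs CAC they numbered 537, against 339 with the strain term, 0 with the replicate block, 0 with either strain alone, 231 with all 16 libraries, 1130 with DESeq2, 0 without the 4 libraries, 270 at a limit of 2 and 212 to 447 with a mouse left out (212 without CAC replicate 1). In KD vs CAC the 1 gene became 0 with RLE, upper-quartile and total-count scaling, the strain term, the replicate block, either strain alone, limma-voom and without the 4 libraries, 145 with all 16 libraries, 327 with DESeq2, 4 with limma on FPKM and 0 to 1 with a mouse left out. With DESeq2, 1 member had a strain interaction in AM vs CAC. Of the genes that passed in CAC vs NOR, 45.7% were higher in CAC, against 36.3% with upper-quartile factors, 60.8% with total counts and 63.0% with limma on FPKM. With no fold limit it was 55.8%. In AM vs CAC the share that was higher in AM was 44.5%, against 33.9% with the strain term, 54.6% with upper-quartile factors, 56.7% with all 16 libraries, 57.5% with DESeq2, 58.5% at a limit of 2 and 28.8% to 41.0% with a mouse left out (28.8% without CAC replicate 1 or without AM replicate 4).

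Replicate numbers did not pair the mice. The correlations of same-numbered mice were 0.601, 0.13, 0.338 and -0.189 in CAC vs NOR, from -0.453 to 0.045 between AM and CAC, and from -0.636 to -0.25 between KD and CAC. In CAC vs NOR the block ended the calls of Mef2c, Myog and Tnnt2 among the partner genes, and in AM vs CAC those of Casq1, Mafa and Trim63. With the block, 1140, 0 and 0 genes passed in the 3 comparisons, with 1, 0 and 0 members.

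Log2 fold changes that changed sign were as follows. In CAC vs NOR with total counts, they were 0.027 for Myh1, 0.018 for Myh2, 0.105 for Mef2d, 0.087 for Myh11 and 0.037 for Tbx15. With C57BL/6 alone, they were -0.016 for Myh7b, 0.007 for Myh11 and 0.439 for Tbx15, and with BALB/c alone 0.086 for Myh1, 0.445 for Myh2, 0.128 for Myh7, -0.076 for Atp2a1 and 0.085 for Mybpc1. Limma on FPKM gave 0.017 for Myh1, 0.106 for Mef2d, 0.004 for Mybpc1 and 0.078 for Myh11, upper-quartile factors -0.026 for Atp2a1, and leaving out the 4 libraries -0.19 for Myh7b and 0.11 for Tbx15. In AM vs CAC, C57BL/6 alone gave -0.108 for Myh1, 0.062 for Myh3, -0.242 for Myh7 and -0.223 for Myh13, and leaving out the 4 libraries 0.274 for Myh3. In KD vs CAC, Myh1 was -0.004 with total counts, -0.385 with C57BL/6 alone and -0.038 with limma on FPKM, and Myh3 was -0.112 with the replicate block, -1.093 with BALB/c alone, -0.267 with limma-voom and -0.056 with limma on FPKM.

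With each mouse left out in turn, CAC vs NOR ranged from -0.227 to 0.112 for Myh1, -0.487 to 0.268 for Myh2, -0.46 to 0.195 for Myh7, -0.19 to 0.449 for Myh7b, -0.12 to 0.188 for Atp2a1, -0.09 to 0.084 for Mef2d, -0.248 to 0.147 for Mybpc1, -0.116 to 0.088 for Myh11 and -0.231 to 0.111 for Tbx15. AM vs CAC ranged from -0.056 to 0.233 for Myh1, -0.132 to 0.473 for Myh2, -0.073 to 0.439 for Myh7 and -0.051 to 0.58 for Myh13. KD vs CAC ranged from -0.079 to 0.238 for Myh1 and -0.979 to 0.78 for Myh3.

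Share differences that changed sign with C57BL/6 alone were -0.123 points for Myh7, -0.56 for Myh2 and 0.0596 for Myh4 in CAC vs NOR and -0.573 for Myh4 in KD vs CAC. With BALB/c alone Myh7 was -1.13 points in KD vs CAC. Without the 4 libraries Myh2 was 0.21 points for AM vs CAC, and 0.364 for KD vs CAC. With each mouse left out, KD vs CAC ranged from -0.638 to 2.12 points for Myh7 and from -3.78 to 0.292 for Myh2.

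With 4 mice a group, the spread between CAC mice limits what can be seen of Myh4, and Myh3, Myh7b and Myh13 rested on the lowest counts of the members.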
